A study of Mus musculus with 24 samples.

Results

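The collagen genes of the mouse were followed across 6 groups of cells: fibroblasts before and during reprogramming with the Yamanaka factors, established induced pluripotent stem (iPS) cells, and granulocyte monocyte progenitors (GMP) from blood formation. A gene was taken as a member if its symbol was Col, a type number, the letter a and a chain number, which 43 of the 23283 gene symbols in the count table were. Of these, 11 code for chains of fibrillar collagens, 8 for collagens of basement membranes (type IV, XV and XVIII) and 24 for other collagens, such as type VI, the fibril-associated types and the transmembrane types. All 43 had counts in at least 1 library. A set of 22 members reached a group mean of 20 CPM (counts per 1e6 counts of a library) in at least 1 group. These are given library by library in the groups the results turn on or, where they stayed low, by their range. Of the 22, Col10a1, Col15a1, Col17a1 and Col20a1 reached that mean only in a GMP group, and only through 1 high library.

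Collagens are triple helices of 3 chains, each coded by its own gene, and the name of a gene gives the type and the chain. Fibrillar collagens, above all type I, are secreted by fibroblasts and assemble into the fibrils that bear tension in connective tissue, with type III and V chains mixed into them. Type IV collagen forms the sheet-like network of basement membranes, under epithelia and around other cells, and type XV and XVIII chains are anchored there. Mouse embryonic fibroblasts (MEF) are a standard collagen-secreting starting cell for reprogramming, in which fibroblast genes are shut down before the pluripotency genes come on.

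Bulk MEF (n = 4 libraries) were untreated, were not sorted by cycling speed and were kept in medium with 10% serum; their labels list them as slow cycling. Slow MEF (n = 4) and fast MEF (n = 4) had been given doxycycline at 2 ug/ml for 6 days to induce the factors, in embryonic stem cell medium with 15% serum and LIF, and were sorted by how far the dye CFSE had been diluted by division over 48 hours. The iPS cells (n = 4) no longer depended on the factors, were taken as a bulk Oct4:GFP+ population, were grown in the same medium without doxycycline and are labelled fast cycling. Slow GMP (n = 3) and fast GMP (n = 5) were sorted by CFSE dilution over 24 hours in serum-free medium with cytokines, among them SCF, IL3 and Flt3L. In every group 1000 cells per well were sorted and the cytoplasmic RNA was read out. The labels used here give no strain, transgene promoter, clone or animal for any group and do not say whether libraries of 1 group came from separate cultures or animals, so a p-value here measures how far single libraries scatter, which can be technical scatter alone. Bulk MEF differed from slow and fast MEF in factors, medium, serum and sorting at once, and these cannot be told apart. In such bulk libraries fewer cells of a type and less RNA per cell cannot be told apart either.

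Library totals ran from 2098846 to 18648132 counts, and those of the GMP libraries from 2098846 to 4411526. Levels are CPM, scaled with TMM factors over all 24 libraries. Fibroblast markers (9 genes, among them Thy1, Pdgfra and Postn) summed to between 5066 and 5710 CPM in bulk MEF, 5437 and 7060 in slow MEF, 399 and 661 in fast MEF, and 24.7 and 91.9 in iPS cells. Pluripotency markers (9 genes) summed to between 2339 and 3630 CPM in iPS cells and to at most 22.6 in bulk MEF. GMP markers (8 genes) summed to at least 5324 CPM in every GMP library and to at most 24.3 in any MEF or iPS library. The library fast GMP replicate 1 stood apart: it had counts in all 43 collagen genes, and its collagens summed to 2001 CPM against 95.5 to 366 in the other fast GMP libraries. This breadth was not particular to collagens. Over the whole table it had counts in 18402 genes, the most of any library, against 9380 to 13904 in the other fast GMP libraries.

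Summed over all 43 genes, collagen levels were highest in slow MEF and lowest, among the MEF and iPS groups, in iPS cells; these sums are a description with no test. They came to between 43668 and 82895 CPM in slow MEF, 23124 and 45252 in bulk MEF, 1998 and 5188 in fast MEF, and 577 and 765 in iPS cells. In GMP the sums were 135 to 634 CPM in slow GMP and 95.5 to 2001 in fast GMP. Slow and bulk MEF overlapped, through 1 library of each, while fast MEF lay below every bulk and slow MEF library and above every iPS library.

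Fibrillar chains averaged 28108 CPM ± 9724 (SD, n = 4) in bulk MEF, 60714 ± 17177 (n = 4) in slow MEF, 2482 ± 1484 (n = 4) in fast MEF and 215 ± 122 (n = 4) in iPS cells. Basement membrane chains averaged 1597 ± 580 CPM in bulk MEF, 896 ± 356 in slow MEF, 91.1 ± 12.2 in fast MEF and 410 ± 70.2 in iPS cells. In iPS cells 1 gene, Col18a1, made up 81.1% to 95.1% of this sum. Without Col18a1 the other 7 basement membrane chains averaged 1561 ± 585 CPM in bulk MEF, 859 ± 351 in slow MEF, 89.9 ± 12.4 in fast MEF and 36.6 ± 17.6 in iPS cells, and every iPS library (21.8 to 57.8 CPM) lay below every fast MEF library (75.5 to 105 CPM). The remaining collagens averaged 2283 ± 445 CPM in bulk MEF, 4131 ± 559 in slow MEF, 304 ± 52.9 in fast MEF and 40.2 ± 14.9 in iPS cells.

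**Figure D1:**
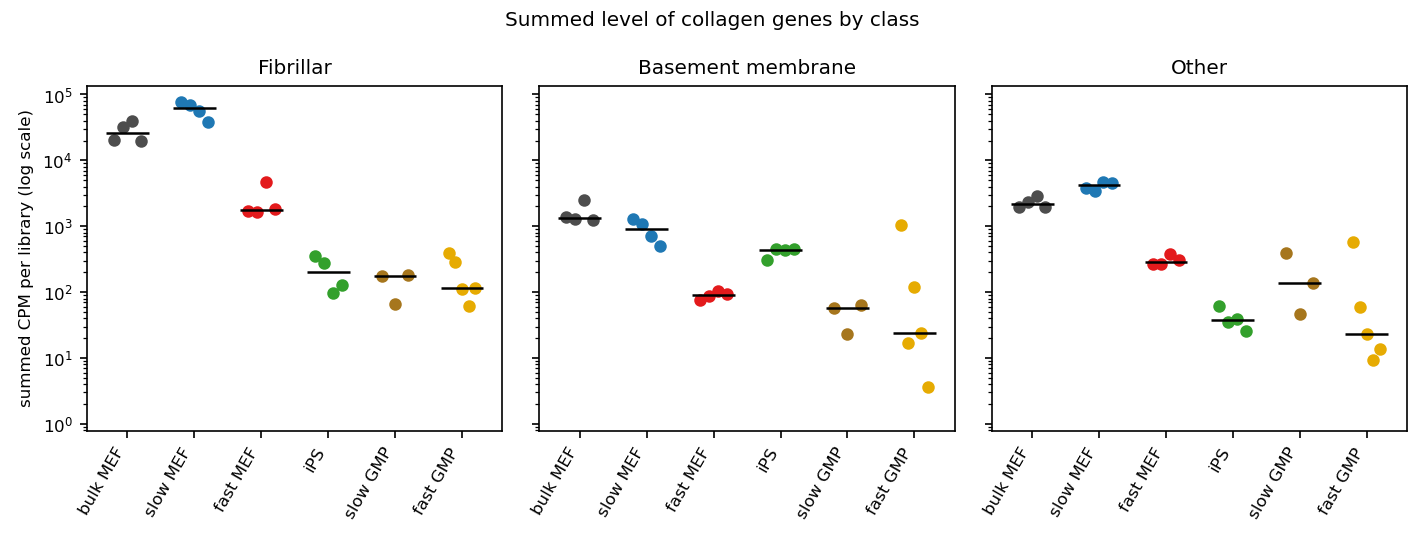
Summed CPM of the 11 fibrillar, 8 basement membrane and 24 other collagen genes in each of the 24 libraries, on a log axis, with 1 point per library and a line at the group median. Fibrillar sums step down from slow MEF to fast MEF to iPS cells, while basement membrane sums are higher in every iPS library (305 to 449 CPM) than in every fast MEF library (76.6 to 105 CPM) through Col18a1 alone: without it the iPS sums are 21.8 to 57.8 CPM.

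Type I collagen made up most collagen counts in every MEF library. Col1a1 and Col1a2 together held 74.4% to 80.2% of the collagen CPM in bulk MEF, 80.2% to 85.1% in slow MEF and 70.4% to 80.2% in fast MEF. In iPS cells their share was 8.44% to 42.1%, and the basement membrane chains held 42.4% to 76.0%, most of it Col18a1. The type I share thus overlapped between fast and bulk MEF, while every iPS library lay below every MEF library.

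**Figure D2:**
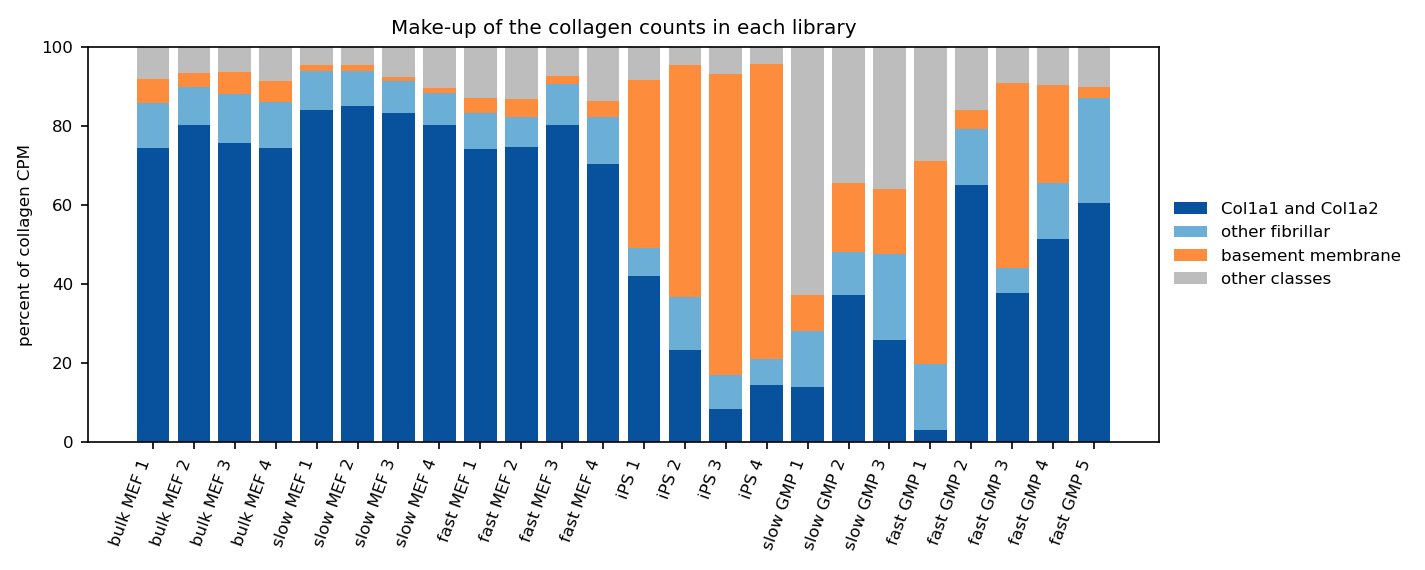
Percent of each library's collagen CPM taken by Col1a1 and Col1a2, the other fibrillar chains, the basement membrane chains and the remaining collagens, as stacked bars that add to 100, 1 bar per library. The 12 MEF libraries are mostly type I, the 4 iPS libraries hold the largest basement membrane shares among the MEF and iPS libraries, mostly Col18a1, and the GMP libraries vary, with 3.02% to 65.1% type I in fast GMP.

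Type I collagen is a heterotrimer of Col1a1 and Col1a2 chains and is the main fibril-forming protein of fibroblasts. Col1a1 stood at 10336, 20775, 21757 and 10129 CPM in the bulk MEF libraries and at 36334, 39823, 33848 and 24823 in slow MEF. In fast MEF it stood at 950, 958, 2346 and 1068 CPM, and in iPS cells at 182, 99.8, 26.9 and 35.1. These 4 groups did not overlap with each other for Col1a1. Col1a2 stood at 7301, 8016, 12468 and 7068 CPM in bulk MEF and at 33417, 23692, 17622 and 10209 in slow MEF, where the lowest slow library lay within the bulk range. It stood at 588, 532, 1817 and 518 CPM in fast MEF and at 121, 79.2, 21.8 and 51.7 in iPS cells. Fast MEF replicate 3 was the highest fast library for both genes.

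Type III collagen, the homotrimer of Col3a1 found in the thin fibrils of young and elastic tissue, had the largest step among the fibrillar members between bulk and slow MEF that passed the test. Col3a1 stood at 256, 292, 411 and 167 CPM in bulk MEF and at 3248, 2233, 1676 and 864 in slow MEF. In fast MEF it stood at 58.6, 39.5, 76.2 and 50.4 CPM, and in iPS cells at 4.26, 2.79, 0.681 and 0.320. Slow MEF lay above and fast MEF below every bulk MEF library.

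The annotated upstream sequences of Col1a2 and Col3a1 are shown because these fibrillar genes were both higher in slow than in bulk MEF and lower in fast MEF. Col1a1 had the same pattern but was among 8 members without a window in the sequences used. The windows are the 250 bases before the annotated start in RefSeq on GRCm38.p6. They are written 5′ to 3′ on the gene's own strand, with matches to 3 motifs in capitals. The motifs are the CCAAT box, searched as CCAAT and, for the opposite strand, ATTGG; the GC box, searched as GGGCGG and, likewise for the opposite strand, CCGCCC; and the TATA box, searched as TATAAA with its reverse complement TTTATA. The window of Col1a2 lies at chr6:4505368-4505617 on the + strand and that of Col3a1 at chr1:45311288-45311537 on the + strand.
Col1a2: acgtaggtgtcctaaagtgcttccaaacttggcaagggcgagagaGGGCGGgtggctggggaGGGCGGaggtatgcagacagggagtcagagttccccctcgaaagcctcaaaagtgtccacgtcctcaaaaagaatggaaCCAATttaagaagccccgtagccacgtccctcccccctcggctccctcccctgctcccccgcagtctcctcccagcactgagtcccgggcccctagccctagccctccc
Col3a1: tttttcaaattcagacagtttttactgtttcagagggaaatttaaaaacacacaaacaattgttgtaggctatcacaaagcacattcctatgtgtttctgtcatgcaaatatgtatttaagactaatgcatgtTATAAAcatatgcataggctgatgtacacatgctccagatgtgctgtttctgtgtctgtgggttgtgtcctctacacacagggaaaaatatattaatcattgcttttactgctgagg
The Col1a2 window is 62% G and C and holds 1 CCAAT match and 2 GGGCGG matches. The Col3a1 window is 35.2% G and C and holds 1 TATAAA match and none of the others. Over both strands CCAAT was found in 34.2% of the 38 windows of 35 collagen genes and in 33.8% of all 32851 windows, TATAAA in 13.2% and 12.4%, and GGGCGG in 57.9% and 32.7%. A match describes these letters only.

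Type V chains are woven into type I fibrils and set their width. Col5a1 stood at 1679, 2018, 3988 and 1841 CPM in bulk MEF and at 3062, 2853, 2259 and 1916 in slow MEF, which overlapped, and at 85.1, 81.4, 364 and 168 in fast MEF and 19.5, 31.4, 11.8 and 23.5 in iPS cells. Col5a2 stood at 659, 830, 992 and 533 CPM in bulk MEF, 1518, 1364, 1003 and 690 in slow MEF, 39.5, 30, 55.6 and 39.3 in fast MEF, and 11.7, 10.5, 1.8 and 2.56 in iPS cells. Fast MEF lay below both bulk and slow MEF for each of these chains. Col5a3, a less common chain of the type, had another order: 71.3, 305, 229 and 169 CPM in bulk MEF, 135, 36.4, 23.7 and 33.5 in slow MEF, 1.72, 3.16, 19.6 and 4.78 in fast MEF, and 8.52, 13.7, 24.6 and 7.44 in iPS cells, so that iPS cells and fast MEF overlapped.

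Col11a1 codes for a chain of the type XI collagen that sits in the core of thin fibrils. In bulk MEF it stood at 21.3, 32.2, 33.4 and 21.4 CPM and in slow MEF at 20.5, 18.5, 14.9 and 15.1. Every slow MEF library lay below every bulk MEF library, but Col11a1 did not pass the test between these groups (edgeR adjusted p = 0.33). It was at most 1.12 CPM in fast MEF and 0.348 in iPS cells. Col27a1, a fibrillar chain of cartilage, varied within groups, at 8.11, 2.80, 16.6 and 0.226 CPM in bulk MEF, 19.5, 8.63, 15.6 and 37.9 in slow MEF, 0.272, 0.352, 14 and 0.718 in fast MEF, and 4.56, 0.261, 0.292 and 0.240 in iPS cells. Col2a1, the main collagen of cartilage, was near 0 in bulk MEF, with counts in 1 library only (0.708 CPM), and stood at 1.82, 42.4, 9.83 and 6.00 CPM in iPS cells. Col24a1 and Col11a2 stayed under 20 CPM as group means in all groups.

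Per kilobase of exon, which allows genes to be compared, Col1a1 (2656 CPM per kb) and Col1a2 (1576) led in bulk MEF, ahead of Col5a1 (281) and Col6a1 (269). The order in slow MEF was Col1a1 (5684), Col1a2 (3840), Col6a1 (457), Col3a1 (360) and Col5a1 (297). In fast MEF Col1a1 (224), Col1a2 (156) and Col6a1 (49.3) led, and in iPS cells Col18a1 (53.2) led ahead of Col1a1 (14.5), Col1a2 (12.4) and Col9a2 (5.29).

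Col4a1 and Col4a2 code for the chains of the common type IV network, the sheet of nearly every basement membrane. Col4a1 stood at 954, 716, 1253 and 784 CPM in bulk MEF, 675, 516, 347 and 178 in slow MEF, 62.0, 62.8, 73.4 and 52.4 in fast MEF, and 26.5, 33.7, 16.4 and 15.0 in iPS cells. Each group lay wholly below the one before it. Col4a2 stood at 421, 491, 1154 and 397 CPM in bulk MEF and 551, 495, 298 and 285 in slow MEF, which overlapped, then at 9.78, 22.3, 23.4 and 38.2 in fast MEF and 31, 10.3, 6.04 and 6.80 in iPS cells, which overlapped too. Both genes lie on chromosome 8 with annotated starts 21 bases apart (Col4a1 at 11312826 on the − strand and Col4a2 at 11312805 on the + strand of GRCm38.p6), so their first exons overlap, and reads from that overlap cannot be assigned without strand. Col4a5, an X-linked chain of another type IV network, stood at 6.90 to 21.3 CPM in bulk MEF, 6.65 to 20.4 in slow MEF, 0.319 to 2.77 in fast MEF and at most 0.261 in iPS cells.

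Col18a1, the type XVIII chain of basement membranes whose end fragment is endostatin, had its highest levels in iPS cells. It stood at 6.64, 67.3, 31.9 and 38.5 CPM in bulk MEF, 26.8, 63.7, 33.1 and 27.0 in slow MEF, 1.09, 1.58, 0.520 and 1.83 in fast MEF, and 247, 405, 416 and 426 in iPS cells. Every iPS library lay above every MEF library, and every fast MEF library lay below every other MEF library. Endothelial markers (7 genes) summed to 98.1 to 130 CPM in iPS cells and to 26.6 to 39.5 in fast MEF, with Emcn at 0 in both groups. Of 4 tested in iPS cells against fast MEF, Pecam1 was higher (7.74 ± 0.84) and Tek lower (-2.84 ± 0.58). Parietal endoderm markers (8 genes) summed to 1506 to 1791 in iPS cells and 4738 to 6103 in fast MEF. They were highest in bulk MEF (29009 to 35786) and slow MEF (34785 to 43678), with Sox17 at 0 in bulk and fast MEF and Gata4 at 0 in bulk MEF. These sums thus need not stand for those cell types, and the part of the markers in the Col18a1 level was not tested.

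Col18a1 has 2 annotated starts on the − strand of chromosome 10, 52825 bases apart, and counts per gene do not say which was used. The windows are shown because Col18a1 was the collagen with the largest gain in iPS cells over fast MEF among the members past the threshold. The window of the upstream start lies at chr10:77166531-77166780 and that of the downstream start at chr10:77113706-77113955, with the same letters in capitals as above.
Col18a1 upstream start: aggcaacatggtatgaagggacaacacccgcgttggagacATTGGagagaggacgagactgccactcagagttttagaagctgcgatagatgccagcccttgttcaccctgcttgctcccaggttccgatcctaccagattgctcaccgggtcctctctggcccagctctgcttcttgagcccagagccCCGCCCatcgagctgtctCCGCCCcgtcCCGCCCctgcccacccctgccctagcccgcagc
Col18a1 downstream start: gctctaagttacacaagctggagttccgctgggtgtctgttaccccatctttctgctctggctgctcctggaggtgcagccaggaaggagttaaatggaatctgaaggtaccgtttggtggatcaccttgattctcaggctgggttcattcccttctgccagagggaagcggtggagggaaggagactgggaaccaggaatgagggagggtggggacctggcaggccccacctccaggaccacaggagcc
The first holds 1 CCAAT match and 3 GGGCGG matches, all on the opposite strand, and is 62% G and C. The other holds none of the 3 motifs and is 57.6% G and C.

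Col15a1, the other collagen of this class with an endostatin-like end, was low in fibroblasts, at 0.586, 0.560, 0.404 and 0 CPM in bulk MEF and 9.82, 4.15, 2.65 and 7.04 in slow MEF, which did not overlap. It was at most 1.72 CPM in fast MEF and 0.0800 in iPS cells. Fast GMP replicate 1 had 474 CPM of it, against 0 to 8.35 in the other fast GMP libraries and 3.65 to 14.8 in slow GMP.

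**Figure D3:**
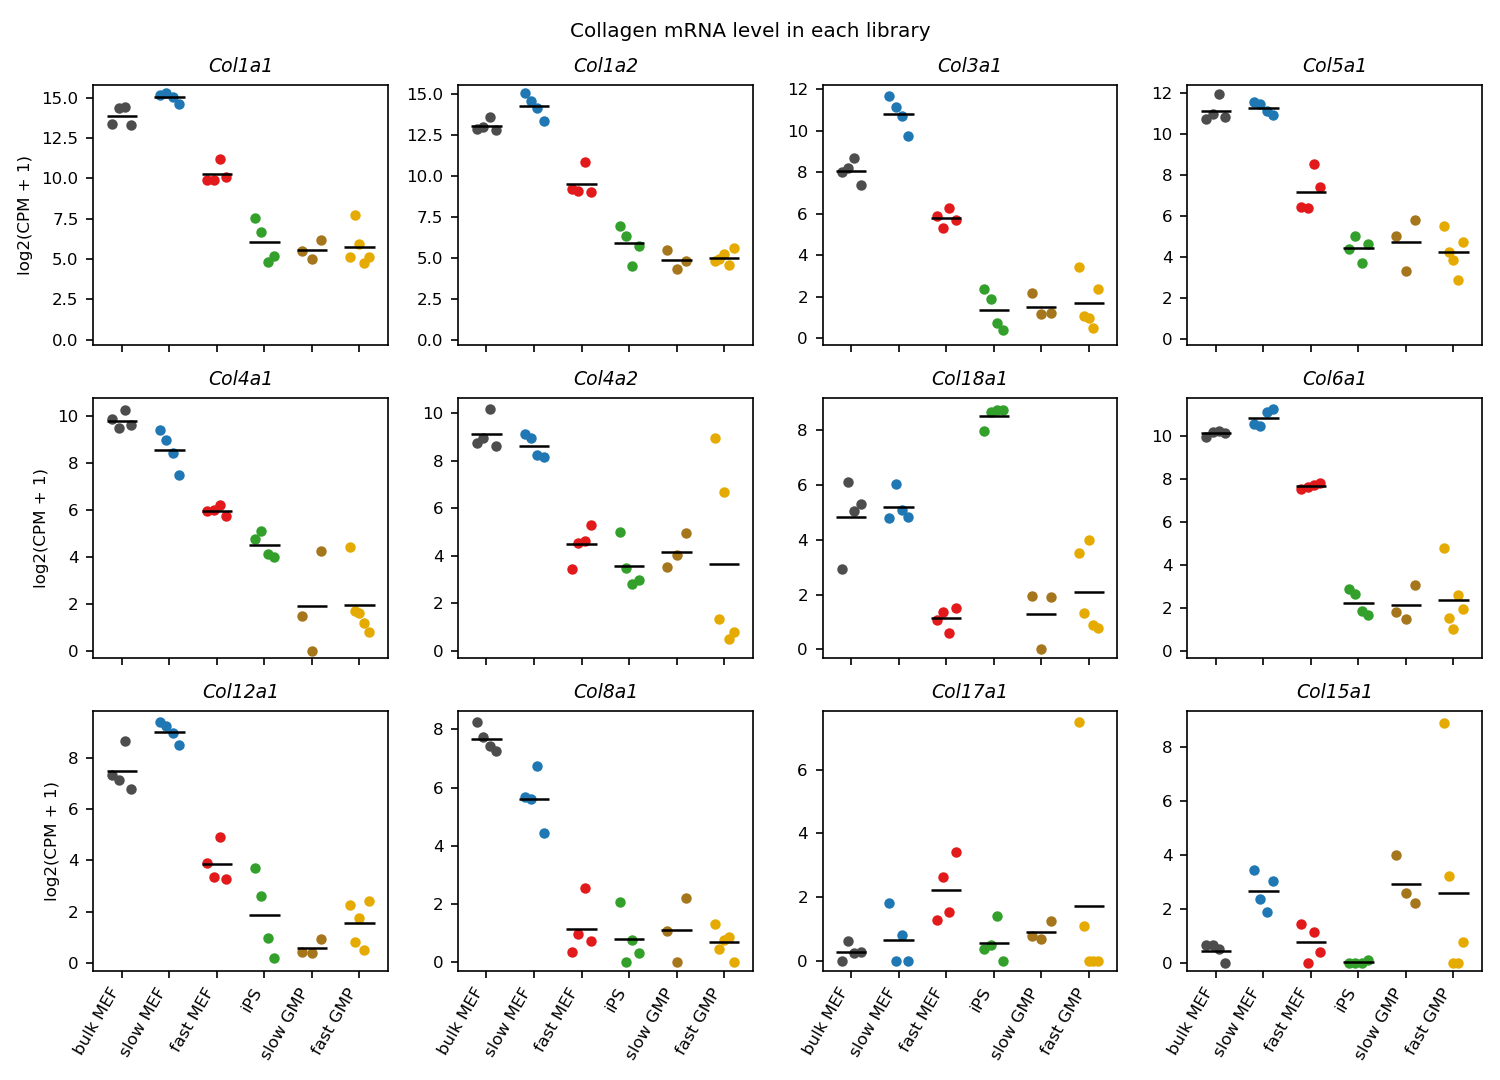
log2(CPM + 1) of 12 collagen genes in each library, 1 panel per gene with its own axis, 1 point per library and a line at the group mean. Most panels step down from slow MEF to fast MEF to iPS cells; Col18a1 is high in iPS cells (247 to 426 CPM), Col17a1 is low everywhere but in fast GMP replicate 1, and Col15a1 and Col4a2 are spread widely in fast GMP.

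Type VI collagen forms the beaded filaments around cells from its Col6a1, Col6a2 and Col6a3 chains. Col6a1 stood at 993, 1148, 1177 and 1095 CPM in bulk MEF, 1492, 1380, 2190 and 2440 in slow MEF, 184, 194, 210 and 221 in fast MEF, and 6.39, 5.22, 2.63 and 2.16 in iPS cells, with no overlap between these groups. Col6a2 stood at 307, 589, 512 and 355 CPM in bulk MEF, 834, 833, 978 and 1046 in slow MEF, 39.9, 32.3, 58.9 and 35.7 in fast MEF, and 15.5, 2.18, 0.389 and 0.320 in iPS cells. Col6a3 stood at 147, 194, 482 and 177 CPM in bulk MEF, 666, 512, 795 and 539 in slow MEF, 17.5, 17.1, 29.3 and 22.8 in fast MEF, and at most 3.4 in iPS cells. The 4 groups were separate for all these chains. Col6a4, Col6a5 and Col6a6 stayed under 20 CPM as group means in all groups.

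Col12a1, which coats type I fibrils, stood at 159, 141, 401 and 109 CPM in bulk MEF, 669, 599, 499 and 362 in slow MEF, 13.9, 9.32, 29.4 and 8.61 in fast MEF, and 12, 5.05, 0.974 and 0.160 in iPS cells. Slow MEF overlapped with bulk MEF through bulk MEF replicate 3. Col8a1, a chain of a short-chain network collagen, had the opposite order in bulk and slow MEF, at 301, 213, 170 and 150 CPM in bulk MEF and 49.7, 47.8, 105 and 20.7 in slow MEF, and at most 4.85 in fast MEF and 3.19 in iPS cells. Its partner Col8a2 stood at 0, 0.0934, 0.910 and 24.0 CPM in bulk MEF, 31, 18.2, 10.7 and 42.8 in slow MEF, and 0.543, 0.352, 18.2 and 3.27 in fast MEF, with a single high library in bulk MEF and in fast MEF.

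Col7a1, which codes for the anchoring fibrils under the epidermis, stood at 25.2, 27.5, 125 and 35.5 CPM in bulk MEF, 64.1, 54.5, 13.4 and 51.2 in slow MEF, at most 5.37 in fast MEF and 5.99 in iPS cells. Col17a1, the transmembrane collagen of the hemidesmosomes of basal keratinocytes, stood at 0, 0.560, 0.202 and 0.226 CPM in bulk MEF, 2.56, 0, 0.756 and 0 in slow MEF, and 1.45, 5.27, 1.91 and 9.73 in fast MEF. Fast MEF lay above bulk MEF in every library and overlapped with slow MEF. Col9a2, a chain of the type IX collagen that coats cartilage fibrils, stood at 16.4, 15.3, 16.6 and 13.4 CPM in iPS cells and at most 3.09 in any MEF library.

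Fast MEF were compared with slow MEF to ask how cells of the same factor-induced culture conditions differ with cycling speed. Of 43 collagens, 25 had enough counts to be tested, and 17 of these were lower and 0 higher in fast MEF (edgeR quasi-likelihood test, adjusted p under 0.05 over all 11742 genes tested), where 17.3% of all genes tested were lower and 14.4% higher. At an unadjusted p under 0.05, 20 collagens were lower and 0 higher, against 22.9% and 19.3% of all genes. DESeq2 tested 35 collagens and called 20 lower and 0 higher, beside 2588 lower and 2335 higher of 14134 genes. With limma voom 24 of the 25 were lower and 1, Col17a1, higher, beside 2614 lower and 2086 higher of 11742 genes. The median log2 difference of the 25 collagens was -3.93, beside -0.11 over all genes tested. By class, 7 of 9 tested fibrillar, 4 of 5 basement membrane and 6 of 11 other collagens were lower.

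Col1a1 was lower in fast MEF by a log2 difference of -4.75 ± 0.38 (SE, edgeR adjusted p = 2.7e-05), Col3a1 by -5.27 ± 0.45 and Col5a2 by -4.91 ± 0.35. The type VI chains fell, with log2 differences of -3.32 ± 0.23 for Col6a1, -4.57 ± 0.28 for Col6a2 and -4.97 ± 0.31 for Col6a3. In the basement membrane class the log2 differences were -5.00 ± 0.55 for Col18a1, -4.24 ± 0.44 for Col4a2 and -2.89 ± 0.39 for Col4a1. With all 24 libraries in 1 fit, 12 of 40 collagens tested were lower in place of 17, beside 656 of 15813 genes. Col4a1 (edgeR adjusted p = 0.057), Col4a2 (0.051), Col4a5 (0.062), Col5a3 (0.17) and Col7a1 (0.11) no longer passed. Col8a1 (-5.22 ± 0.94), Col12a1 (-5.22 ± 0.49) and Col11a1 (-5.42 ± 0.92) had log2 differences close to that of Col3a1. Of the 8 members that did not pass, Col15a1 (-2.96 ± 1.07), Col16a1 (-2.87 ± 1.06) and Col24a1 (-3.31 ± 1.24) had negative log2 differences and Col17a1 a positive one, 2.33 ± 1.34. Without fast MEF replicate 3, Col27a1 (log2 difference -5.56) and Col8a2 (-4.28) passed as well, and Col5a3 no longer passed without slow MEF replicate 1 (-2.18), fast MEF replicate 2 (-2.79) or fast MEF replicate 4 (-2.88). Without fast MEF replicate 3 the log2 difference of Col1a2 was -5.37, against -4.70 with it, that of Col5a1 -4.59, against -3.93, and that of Col8a1 -6.55; without fast MEF replicate 4 that of Col11a1 was -6.63. Without fast MEF replicate 3 that of Col5a3 was -4.24, against -3.05.

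Enzymes and chaperones that fold, hydroxylate, trim and crosslink collagen were lower in fast MEF as well: 19 of 27 tested list members were lower and 1 higher, beside 17.3% and 14.4% of all genes tested. Serpinh1, the collagen chaperone of the endoplasmic reticulum, had a log2 difference of -2.44 ± 0.26, P4ha2, a prolyl hydroxylase subunit, one of -3.58 ± 0.39 and the crosslinking enzyme Lox one of -4.34 ± 0.26. Pcolce2, an enhancer of procollagen trimming, was higher (1.85 ± 0.51). Of the collagen receptors, 5 of 6 tested members were lower, among them Itga11 (-5.52 ± 0.57), Mrc2 (-4.46 ± 0.46) and Itgb1 (-2 ± 0.26). The non-collagen partners of basement membranes split, with 6 of 14 higher, such as Lamc1 (1.71 ± 0.33) and Lama5 (2.90 ± 0.66), and 6 lower, such as Nid1 (-4.80 ± 0.29) and Hspg2 (-1.91 ± 0.28). Fibroblast markers fell with the collagens, 9 of 9 of them, and their part in the collagen difference was not tested.

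Slow MEF were compared with bulk MEF, from which they differed in factors, medium, serum and sorting at once. Of 24 collagens tested, 10 were higher in slow MEF and 1, Col8a1, was lower, where 5.51% of the 11253 genes tested were higher and 4.99% lower. The median log2 difference was 0.96 for the collagens, beside 0.03 over all genes. By class, 3 of 9 fibrillar (Col1a1, Col1a2 and Col3a1), 1 of 5 basement membrane (Col15a1) and 6 of 10 other collagens (Col6a1, Col6a2, Col6a3, Col12a1, Col14a1 and Col23a1) were higher. With all 24 libraries in 1 fit, 0 of 40 collagens tested were called in either direction, beside 38 higher and 18 lower of 15813 genes. DESeq2 called 11 higher and 2 lower of 34 collagens tested, beside 1387 and 1050 of 13123 genes. With limma voom 12 of 24 were higher and 3 lower, beside 611 and 610 of 11253 genes. At an unadjusted p under 0.05 edgeR had 12 higher and 3 lower, beside 13.3% and 12.9% of all genes. Without bulk MEF replicate 1, 2, 3 and 4 in turn the number higher was 2, 3, 7 and 6. Without slow MEF replicate 1, 2, 3 and 4 in turn it was 5, 6, 4 and 8. The number lower was 0 to 2 in these refits. Calls over the whole table fell too, to 386 to 524 higher and 354 to 474 lower of 11539 to 11773 genes tested. With all libraries they were 620 and 561 of 11253.

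Col3a1 was higher by a log2 difference of 2.88 ± 0.40 (edgeR adjusted p = 0.0015) and Col6a2 by 1.11 ± 0.24 (adjusted p = 0.014), and among the members given library by library these passed whichever library was left out. Col1a1 (1.14 ± 0.26), Col1a2 (1.33 ± 0.32), Col12a1 (1.44 ± 0.39), Col6a1 (0.81 ± 0.21), Col6a3 (1.38 ± 0.37), Col15a1 (3.92 ± 0.95) and Col8a1 (-1.85 ± 0.45) each lost the call without bulk MEF replicate 1, and each also without other single libraries. Col14a1, a fibril-associated collagen, stood at 0.195, 0.0934, 1.01 and 0 CPM in bulk MEF and 6.30, 3.66, 12.4 and 5.57 in slow MEF (4.41 ± 1.06), and lost the call without bulk MEF replicate 1, bulk MEF replicate 2 or slow MEF replicate 3. Col23a1, a transmembrane collagen, had 2 counts over the bulk MEF libraries and 86 over slow MEF, a ratio of 42.9 with a 95% counting interval of 11.5 to 360, and the call was lost when bulk MEF replicate 1, bulk MEF replicate 2, bulk MEF replicate 3 or slow MEF replicate 3 was left out. Col5a1 (0.13 ± 0.28), Col11a1 (-0.61 ± 0.37), Col4a1 (-1.07 ± 0.36), Col4a2 (-0.55 ± 0.37) and Col18a1 (0.11 ± 0.58) did not pass. Left-out libraries brought in Col8a2 (6.25 without bulk MEF replicate 4), Col5a3 (-2.59 without slow MEF replicate 1) and Col4a1 (-1.38 without slow MEF replicate 1).

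Among the processing genes, 1 of 25 tested members was higher in slow than in bulk MEF (P4ha3, a prolyl hydroxylase subunit) and 3 were lower, Loxl2 (-1.19 ± 0.24), Glt25d1 (-1.09 ± 0.26) and Crtap (-1.16 ± 0.32), beside 5.51% higher and 4.99% lower among all genes tested. Of 11 tested basement membrane partners, Lama4 (2.49 ± 0.35) and Agrn (1.64 ± 0.46) were higher, and of 6 receptors Itgb1 was lower (-0.84 ± 0.24). Among fibroblast markers 4 of 9 were higher, with Dcn at 2.67 ± 0.30 and Pdgfra at 3.88 ± 0.54, and smooth muscle and pericyte markers summed to 1798 to 2258 CPM in slow MEF against 8306 to 11848 in bulk MEF. The part of these cell markers in the collagen differences was not tested.

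Fast MEF against bulk MEF shares the fast MEF libraries with the first comparison and the bulk MEF libraries with the one before. Of 20 collagens tested, 17 were lower and 1, Col17a1, was higher, where 18.4% of the 11335 genes tested were lower and 16.5% higher. The median log2 difference was -3.77 for the collagens, beside -0.05 over all genes, and 7 of 8 fibrillar, 4 of 4 basement membrane and 6 of 8 other collagens tested were lower. Col1a1 fell by 3.58 ± 0.43 on the log2 scale (edgeR adjusted p = 0.00015), and the log2 differences were -2.36 ± 0.35 for Col3a1, -3.93 ± 0.27 for Col4a1, -4.86 ± 0.73 for Col18a1, -2.49 ± 0.18 for Col6a1 and -7.09 ± 0.85 for Col8a1. Of the processing enzymes, 23 of 27 were lower, with Lox (-4.62 ± 0.24) at the smallest adjusted p of the list, and 1, Adamts3, was higher (5.77 ± 0.88). With all 24 libraries in 1 fit Col7a1 no longer passed (edgeR adjusted p = 0.091). Without fast MEF replicate 3 the log2 difference was -4.01 for Col1a2, -4.43 for Col5a1, -5.91 for Col5a3 and -8.35 for Col8a1, against -3.34, -3.78, -4.75 and -7.09 with it, and Col27a1 passed as lower (-3.93). Without bulk MEF replicate 3 it was -3.16 for Col12a1 and -3.49 for Col7a1, against -3.76 and -4.40, and without fast MEF replicate 4 it was -7.22 for Col11a1, against -5.99.

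Col17a1 was the 1 collagen higher in fast than in bulk MEF, by a log2 difference of 4.08 ± 1.04 (edgeR adjusted p = 0.012), at levels under 10 CPM. The difference was 3.42 without fast MEF replicate 4 and 4.84 without bulk MEF replicate 2, both past the threshold; with all 24 libraries in 1 fit its adjusted p was 0.18, and a stricter filter on low counts did not test it. Of 8 keratinocyte markers 4 could be tested, and 3 of them (Krt14, Itgb4 and Lamb3) were higher in fast than in bulk MEF. The 8 summed to between 7788 and 12836 CPM in fast MEF, 40.3 and 583 in slow MEF and 4.35 and 19.4 in bulk MEF, with Trp63, Krt1 and Lamb3 at 0 in bulk MEF. Most of the sum in fast MEF was Krt14, at a mean of 9822 CPM ± 2308 (SD, n = 4), and the integrin Itgb4, which sits with Col17a1 in hemidesmosomes, was higher by 8.89 ± 0.81. Whether these markers and Col17a1 came from the same cells was not tested.

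**Figure D4:**
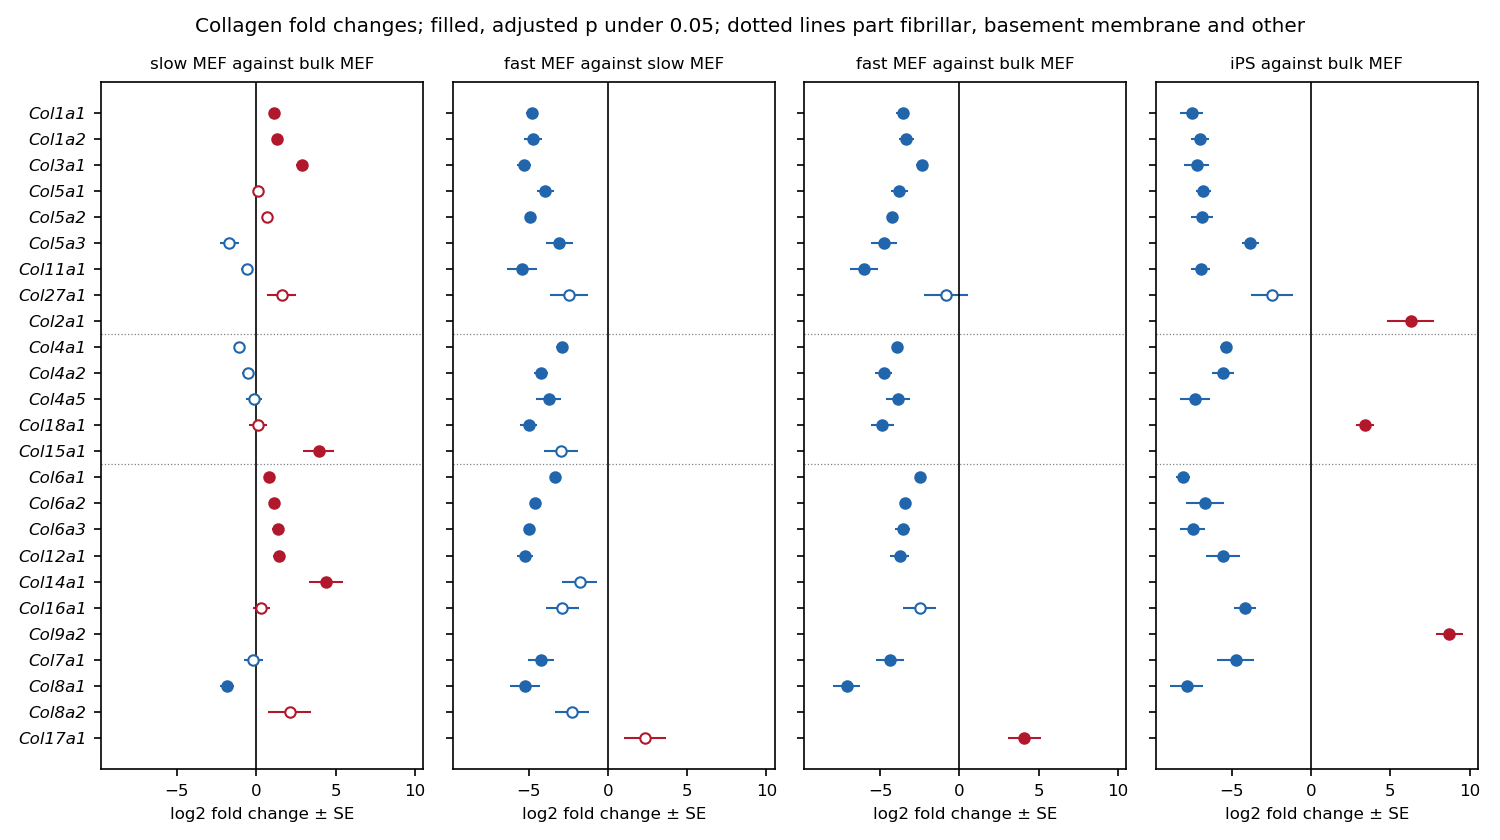
log2 fold changes of collagen genes with their standard errors in 4 comparisons. Filled points have an edgeR adjusted p under 0.05 and open points do not. Red is higher and blue lower in the first-named group, and a listed gene with no point was not tested. Col23a1 and Col24a1 were tested in slow against bulk MEF and fast against slow MEF but are not drawn. Against slow MEF and against bulk MEF nearly all fast MEF points lie to the left of 0, while in iPS cells Col18a1, Col2a1 and Col9a2 lie to the right.

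The iPS cells were compared with bulk MEF, the start and end of reprogramming. Of 21 collagens tested, 17 were lower and 3 higher in iPS cells, where 23.3% of the 11736 genes tested were lower and 24.1% higher, and the median log2 difference was -6.66 for the collagens, beside 0.10 over all genes. Fibrillar members were lower in 7 of 9 cases, basement membrane members in 3 of 4 and other collagens in 7 of 8. Col1a1 fell by 7.52 ± 0.74 on the log2 scale (edgeR adjusted p = 4.2e-05), and the log2 differences were -6.79 ± 0.47 for Col5a1, -5.34 ± 0.38 for Col4a1 and -8.09 ± 0.43 for Col6a1. Without iPS replicate 1, the highest iPS library for Col1a1, Col1a2, Col3a1 and Col6a2, the log2 difference of Col1a1 was -8.24, that of Col3a1 -7.87 against -7.21, that of Col4a2 -6.37 against -5.54, that of Col12a1 -6.69 against -5.54, that of Col8a1 -9.24 against -7.83 and that of Col6a2 -8.93 against -6.66, and Col27a1 passed as lower (-4.70). Other single libraries moved Col6a3 to -8.34 from -7.45 (without iPS replicate 2), Col7a1 to -6.46 or -3.86 from -4.74 (without iPS replicate 3 or bulk MEF replicate 3) and Col12a1 to -4.93 (without bulk MEF replicate 3).

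The 3 collagens higher in iPS cells were Col18a1 (3.39 ± 0.58, edgeR adjusted p = 0.00097), Col2a1 (6.30 ± 1.48, adjusted p = 0.0058) and Col9a2. With all 24 libraries in 1 fit Col2a1 (edgeR adjusted p = 0.051) no longer passed, and of the lower members Col5a3 (0.051) did not either. For Col9a2 the iPS libraries held 794 counts and the bulk MEF libraries 1, a ratio of 616 with a 95% counting interval of 110 to 24376. Col2a1 and Col9a2 are cartilage collagens, and the 7 chondrocyte markers summed to 3.04 to 30.6 CPM in iPS cells and 4.98 to 32.7 in bulk MEF, with Hapln1 and Lect1 at 0 in iPS cells; Acan was higher in iPS cells and Sox9 lower (-5.29 ± 1.33). Col9a1 and Col9a3, the partner chains of Col9a2, had group means of 0.0218 and 0.393 CPM in iPS cells.

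Among the genes that process collagen, 22 of 25 were lower in iPS cells than in bulk MEF, where 23.3% of all genes tested were lower and 24.1% higher, with Serpinh1 at a log2 difference of -5.08 ± 0.27. Receptors were lower in 4 of 6 cases, and basement membrane partners split, with 6 of 13 higher, such as Lama5 (3.77 ± 0.65) and Lama1 (4.73 ± 0.85), and 5 lower, such as Lama4 (-6.47 ± 0.68).

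Set directly against fast MEF, iPS cells had 9 of 17 tested collagens lower and 2 higher, where 19.7% of the 11882 genes tested were lower and 18.8% higher, with a median log2 difference of -2.67, beside 0.00 over all genes. Col6a1 was lower by -5.66 ± 0.41 (edgeR adjusted p = 1.2e-05), Col3a1 by -4.89 ± 0.76 and Col1a1 by -4 ± 0.65. Col18a1 was higher by 8.16 ± 0.41 (adjusted p = 2.4e-06) and Col9a2 by 6.50 ± 0.99. Both passed in each refit without 1 library, as did Col1a1, Col3a1 and Col6a1. Col4a1 (-1.47 ± 0.33) was lower too, but with all 24 libraries in 1 fit its adjusted p was 0.29. Col6a2 (-3.26 ± 1.08) passed only with all libraries or without iPS replicate 1 (-5.49), and lost the call without any other single library of the 2 groups. Without iPS replicate 1, Col4a2 passed as lower (-1.61 against -0.81) and Col1a1 and Col3a1 stood at -4.66 and -5.52; without fast MEF replicate 3, Col5a3 passed as higher (2.09 against 0.84) and Col1a2 and Col5a1 stood at -2.98 and -2.35, against -3.71 and -3.07. Without iPS replicate 2, Col6a3 stood at -4.80 against -3.92, and without iPS replicate 3, Col17a1 passed as lower (-4.18 against -2.85).

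The ratio between chains of the same collagen type was set side by side within each library, which removes scaling between libraries. The log2 ratio of Col1a1 to Col1a2 counts was 0.80 ± 0.41 (SD, n = 4) in bulk MEF, 0.77 ± 0.49 in slow MEF, 0.74 ± 0.28 in fast MEF and 0.17 ± 0.50 in iPS cells. That of Col4a1 to Col4a2 was 0.71 ± 0.47 in bulk MEF, -0.03 ± 0.44 in slow MEF, 1.56 ± 0.90 in fast MEF and 1.01 ± 0.86 in iPS cells. That of Col6a1 to Col6a2 was 1.37 ± 0.35 in bulk MEF, 0.99 ± 0.24 in slow MEF and 2.31 ± 0.37 in fast MEF. Among 18 comparisons of such ratios, 3 reached the smallest two-sided p that an exact permutation test of 4 against 4 libraries can give, 0.0286, with groups that did not overlap: Col4a1 to Col4a2 in fast against slow MEF (1.59 higher), and Col6a1 to Col6a2 in fast against slow MEF (1.32 higher) and against bulk MEF (0.94 higher). Adjusted over the 18, their permutation p was 0.17, and 0 of the 18 passed. With this floor a ratio could pass after adjustment only if most of the 18 reached it, so the result does not show that the ratios were alike.

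**Figure D5:**
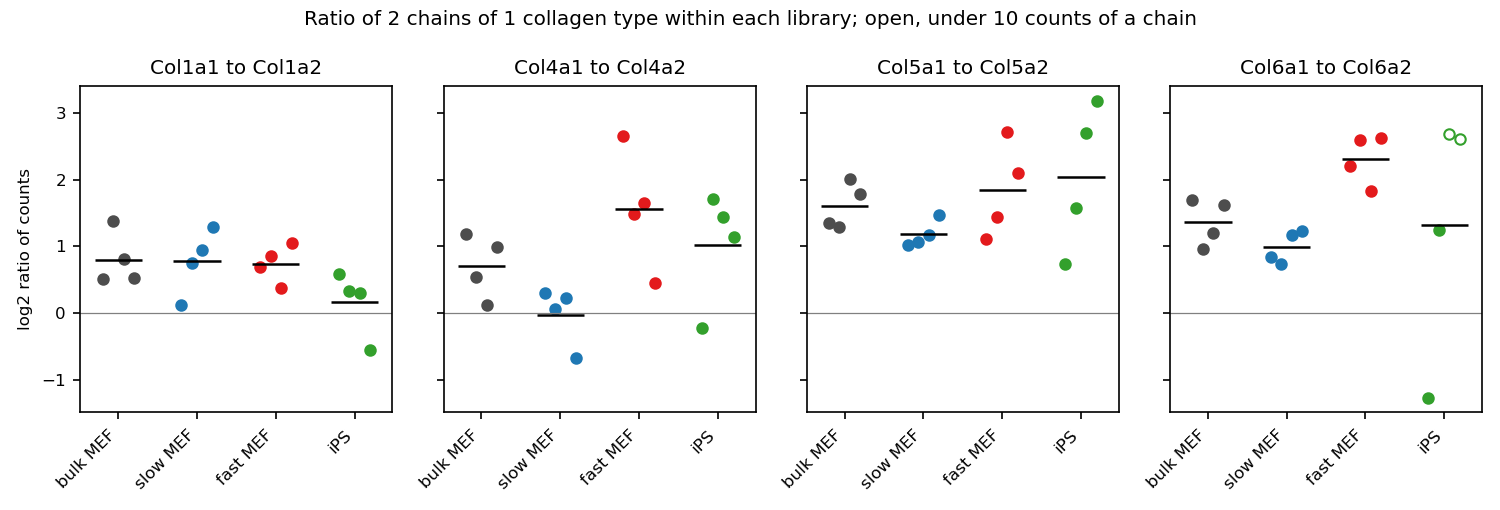
log2 ratio of the counts of 2 chains of the same collagen type in each MEF and iPS library, with a line at the group mean; open points rest on under 10 counts of a chain. The Col1a1 to Col1a2 ratio lies at like values in bulk, slow and fast MEF (group means 0.80, 0.77 and 0.74), and the Col6a1 to Col6a2 ratio is higher in every fast MEF library than in any bulk or slow MEF library.

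Fast GMP were compared with slow GMP, the cycling-speed contrast in blood progenitors. Of 16 collagens tested, 0 were higher and 0 lower (edgeR adjusted p), as were 0% and 0% of the 10057 genes tested; DESeq2 and limma voom also called 0 collagens. Over the whole table DESeq2 called 28 genes higher and 13 lower, and edgeR with all 24 libraries in 1 fit 173 and 212. At an unadjusted p under 0.05 edgeR had 1 lower, Col20a1, and 0 higher, against 3.78% and 3.6% of all genes. The median log2 difference was 0.37 for the collagens, beside 0.12 over all genes. Col1a1 stood at 44.3, 31.5 and 72.1 CPM in slow GMP and 33.9, 210, 59.1, 26.3 and 34.3 in fast GMP (log2 difference 0.51 ± 0.95), and Col1a2 at 43.9, 18.8 and 27.4 against 26.6, 28.8, 36.1, 22.9 and 46.5 (0.10 ± 0.86), so both overlapped.

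Some collagens had 1 high library in GMP. Col10a1, Col15a1, Col17a1 and Col20a1 are given library by library only because such a library lifted a GMP mean to 20 CPM. Their dependence on that library thus followed from the choice of members. Col1a1 and Col1a2 had counts in every GMP library. Together they held 37.8% to 65.1% of collagen CPM in fast GMP replicates 2 to 5, 3.02% in fast GMP replicate 1 and 13.9% to 37.2% in slow GMP. Col20a1, a fibril-associated collagen, stood at 294, 0.617 and 5.93 CPM in slow GMP and 4.63, 1.52, 0, 0 and 0 in fast GMP, and Col10a1, the collagen of hypertrophic cartilage, at 71.3, 1.23 and 0 in slow GMP and at most 2.32 in fast GMP; slow GMP replicate 1 was the high library for both. Fast GMP replicate 1 held 496 CPM of Col4a2, 474 of Col15a1, 177 of Col17a1, 153 of Col7a1, 102 of Col27a1 and 57.6 of Col5a3. Col4a2 also stood at 100 CPM in fast GMP replicate 3, against 0.417 to 1.52 in the other fast libraries. The differences of Col15a1 (3.69 ± 2.43), Col4a2 (2.74 ± 1.96) and Col7a1 (2.43 ± 2.12) did not pass, and without fast GMP replicate 1 they were -1.84, 0.31 and -0.54. With all 24 libraries in 1 fit, Col20a1 was called lower (-6.23); in the fit of the GMP libraries alone its log2 difference ran from -6.82 to -1.33 over the 7 refits without 1 library that tested it, the last without slow GMP replicate 1, and it passed in none of these. The fibroblast markers summed to 21.3 to 35.6 CPM in slow GMP and 39.2 to 266 in fast GMP, with Lum at 0 in both groups, and the keratinocyte markers to 19.7 to 209 and 3.38 to 103; their part in these levels was not tested.

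The 21 members under 20 CPM in every group mean were Col2a1, Col4a3 to Col4a6, Col6a4 to Col6a6, Col9a1 to Col9a3, Col11a2, Col13a1, Col14a1, Col16a1, Col19a1, Col22a1 to Col25a1 and Col28a1. Col16a1, a minor fibril-associated collagen, stood at a mean of 14.3 CPM in bulk MEF, 17.3 in slow MEF and 2.53 in fast MEF and was lower in iPS cells than in bulk MEF (-4.14 ± 0.71). Col24a1, a fibrillar chain, had means of 0.272 CPM in bulk MEF and 3.99 in slow MEF and did not pass (3.85 ± 1.14). Col6a4 reached 51.5 CPM in 1 slow MEF library and at most 0.373 in bulk MEF. Col22a1 had its highest mean, 12.9 CPM, in slow GMP. Col23a1, Col24a1, Col25a1 and Col4a6 had no counts in the iPS libraries, and Col9a1, Col9a3 and Col28a1 none in the bulk MEF libraries.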

How the data were processed

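RNA of 24 mouse samples in 6 groups was analysed from the deposited table of raw counts per gene, which the authors made with TopHat2 2.0.4 and HTSeq on mm9 after CASAVA 1.8.2, per the submitters' processing notes. For the annotation and strandedness of counting, the record is "not given in the sources used here". Of 23283 gene symbols, 1708 had no counts. Samples were grouped by their labels. The members and gene lists were chosen with earlier results of these data known.

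Each comparison used edgeR 4.0.16 (R 4.3.3), with its quasi-likelihood test, TMM factors and default filter on low counts, on the libraries of the 2 groups only; p-values were two-sided and Benjamini-Hochberg adjusted over all genes tested, with a threshold of 0.05. A standard error is the log2 difference divided by the square root of F. The script was tested on simulated data. CPM per kb used exon lengths of GRCm38 gene models, and no coordinate was carried over to mm9. Counting intervals are exact at 95% and cover counting error only; reads without molecular identifiers are not independent molecules. Chain ratios used counts plus 0.5, at least 10 counts of each chain where tested, and exact permutation tests.

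Members with a group mean of at least 20 CPM in any group are given library by library or, in groups where they stayed low, by ranges, and the others by ranges except Col2a1, Col9a2 and Col14a1, chosen after their values were seen; from each list at most 3 genes per direction were named, those with the smallest adjusted p, and any list gene set beside a collagen. The deviations of same-numbered libraries correlated weakly (from -0.11 to 0.11, 23 checked). That of iPS and bulk MEF replicate 1 (0.107) crossed the limit of 0.1, and numbers were not taken as pairs. The 37 pairs of libraries within groups all differed beyond sampling noise (lowest chi-square per degree of freedom 52.0). Alternatives were DESeq2 1.42.0, limma 3.58.1 voom, other scalings and filters, a replicate block, all libraries in 1 fit, thinned counts and leaving out each library. The share of Rn45s and Lars2 was 19.9% to 48.9% of counts in the GMP libraries and 3.05% to 11.7% in the MEF and iPS libraries.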

Additional observations from a re-analysis of the deposited data

Results flagged for a closer look

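In groups of 4 or 5 libraries, 14 of 71 sets of values held a library whose gap to the nearest other exceeded Dixon's 95% limit for the group's range. The sets were CPM values of a gene in a group and chain ratios in a group, and all 14 flagged were of CPM values. A chain ratio entered with at least 10 counts of each chain in every library of the group. A gene and group entered at a mean of at least 20 CPM. For Col15a1, Col17a1, Col7a1 and Col27a1, fast GMP reached this mean only through replicate 1, the library then flagged. The sets also share libraries, so the number flagged cannot be set against a chance rate. Fast GMP replicate 1 was the high library for Col4a2 (496 CPM), Col15a1 (474 CPM), Col17a1 (177 CPM), Col7a1 (153 CPM) and Col27a1 (102 CPM), and fast GMP replicate 2 for Col1a1 (210 CPM). Bulk MEF replicate 3 was the high library for Col5a1 (3988 CPM), Col4a2 (1154 CPM), Col6a3 (482 CPM) and Col7a1 (125 CPM). Fast MEF replicate 3 was the high library for both type I chains, Col1a1 (2346 CPM) and Col1a2 (1817 CPM). Slow MEF replicate 1 was high for Col5a3 (135 CPM), and iPS replicate 1 was low for Col18a1 (247 CPM).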

How the results depend on the processing

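The counts of lower collagens in fast against slow MEF, fast against bulk MEF and iPS cells against bulk MEF stayed within 1.5 times of those reported under every alternative run. Other counts moved. In fast against slow MEF limma voom called 1 higher. In slow against bulk MEF the number higher was 0 with all 24 libraries in 1 fit and 2 to 8 without 1 library. The number lower was 2 with DESeq2, 3 with limma voom, 0 with all 24 libraries and 0 to 2 without 1 library. Over the whole table the refits without 1 library called 386 to 524 genes higher and 354 to 474 lower. In fast against bulk MEF the number higher was 0 with a stricter filter, which did not test Col17a1, and 0 with all 24 libraries. In iPS cells against fast MEF the number higher was 4 with limma voom, beside 2872 of 11882 genes. Without 1 library it was 2 to 4, beside 1907 to 2560 genes. The refit with 4 left out fast MEF replicate 3 and called 2560 of 12325 genes higher. The number lower there was 15 of 35 tested with DESeq2, beside 2784 of 14489 genes. In fast against slow GMP the number lower was 1 with all 24 libraries. With all 24 libraries, genes called over the whole table were 590 higher and 656 lower in fast against slow MEF (1691 and 2035 reported) and 38 and 18 in slow against bulk MEF (620 and 561), 822 and 691 in fast against bulk MEF (1869 and 2089), 1502 and 1668 in iPS cells against bulk MEF (2828 and 2738), 681 and 994 in iPS cells against fast MEF (2229 and 2339), and 173 and 212 in fast against slow GMP (0 and 0). DESeq2 called 28 and 13 in GMP and 1387 and 1050 in slow against bulk MEF. The iPS mean of the basement membrane sum was 36.6 CPM without Col18a1 (410 with it), an alternative chosen after seeing the data. The causes were not tested.

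Log2 differences that changed sign had not passed the threshold. Without 1 library, slow against bulk MEF gave -0.27 to 0.58 for Col18a1 (among them -0.24), -0.020 to 0.48 for Col5a1 and -0.43 to 0.67 for Col7a1 (among them 0.12); fast against bulk MEF gave -3.93 to 0.064 for Col27a1, and iPS cells against fast MEF -2.17 to 0.19 for Col7a1. Fast against slow GMP gave -1.84 to 4.47 for Col15a1, -0.39 to 0.91 for Col1a1, -0.13 to 0.51 for Col1a2 (among them -0.11), -1.14 to 0.11 for Col5a1, -1.61 to 0.13 for Col6a3 and -0.54 to 3.62 for Col7a1. With limma voom GMP gave -0.81 for Col15a1, -0.91 for Col4a2 and -0.28 for Col7a1.

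With the replicate number as a block, 20 of 25 collagens were lower in fast against slow MEF, beside 1815 of 11742 genes. In slow against bulk MEF 9 of 24 were higher and 1 lower, beside 424 and 446 of 11253 genes. Col7a1 (0.17, slow against bulk MEF) and Col6a3 (0.16, GMP) changed sign. The numbers were not taken as pairs, and 9 of 23 correlated best with their own number. Totals of 2098846 to 4411526 counts, of which Rn45s and Lars2 took 19.9% to 48.9%, and the spread between libraries limit what GMP can show.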
